A study of Mus musculus with 3 samples.

Results

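The peaks described here lie around 3 circadian output genes, Bhlhe40, Bhlhe41 and Noct, and were called in mouse liver for the receptors REV-ERB alpha (12 peaks) and REV-ERB beta (8 peaks). They were chosen by position alone within each list: every peak whose centre lay in a fixed window of the mm9 assembly around each gene, namely chr6:108590000-108640000 for Bhlhe40, chr6:145780000-145840000 for Bhlhe41 and chr3:51008000-51075000 for Noct. The windows were proposed with results of these lists in view, so the levels below are a description and carry no test. In all, 20 of 46558 peaks met the rule: 12 of 24461 for alpha and 8 of 22097 for beta.

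Binding was mapped by ChIP-seq, the sequencing of DNA that an antibody pulls down with its protein, with 1 library for REV-ERB alpha, 1 for REV-ERB beta and 1 liver input without antibody. All 3 came from livers of male C57BL/6 mice, 20 weeks old, which had spent 3 days under alternating periods of 12 hours of light and dark and were taken at zeitgeber time 8, that is 8 hours after lights on. With 1 library per antibody no value has a replicate error, and every interval below is a 95% interval for counting error only. Several tags at 1 position can be copies of 1 molecule, so even the counting error may be larger than these intervals. The labels do not say how many animals each library holds, and the depth of each library is unknown here. Whether each antibody also recognises the other receptor was not tested.

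REV-ERB alpha (Nr1d1) and REV-ERB beta (Nr1d2) are nuclear receptors that bind a hexamer related to AGGTCA with an A/T-rich sequence before it, and that repress transcription through the NCoR corepressor and histone deacetylase 3. Bhlhe40 (DEC1) and Bhlhe41 (DEC2) encode related basic helix-loop-helix repressors, which bind E-boxes such as CACGTG and dampen the activity of CLOCK and BMAL1. Noct (nocturnin, earlier Ccrn4l) encodes a phosphatase that acts on NADP(H), was first described as a deadenylase, and is known for a strong daily rhythm of its mRNA in liver.

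Promoter sequences of 2 of the 3 genes, Bhlhe41 and Noct, were available from RefSeq (GRCm38.p6) and are shown because E-boxes, through which the products of Bhlhe40 and Bhlhe41 act, and the REV-ERB hexamer are the motifs of this circuit. The 250 bases before each transcription start are printed 5′ to 3′ on the gene's strand, with capitals for matches to the motifs searched. They come from another assembly than the peaks, so no peak was placed on them.
Bhlhe41, minus strand, window chr6:145865371-145865670: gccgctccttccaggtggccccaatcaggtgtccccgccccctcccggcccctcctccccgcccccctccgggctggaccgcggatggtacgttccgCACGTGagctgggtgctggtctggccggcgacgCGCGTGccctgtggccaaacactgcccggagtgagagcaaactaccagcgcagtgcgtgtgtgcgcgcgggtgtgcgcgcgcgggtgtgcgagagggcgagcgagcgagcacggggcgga
Noct, plus strand, window chr3:51224197-51224496: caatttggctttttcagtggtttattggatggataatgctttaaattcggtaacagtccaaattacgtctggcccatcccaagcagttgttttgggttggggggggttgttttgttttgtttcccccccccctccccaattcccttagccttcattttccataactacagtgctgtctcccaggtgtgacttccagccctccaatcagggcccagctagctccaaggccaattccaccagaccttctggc
The search covered both strands of each 300-base window (250 before and 50 after the start). In the Bhlhe41 window, CACGTG stood at bases 98 to 103, counted from the 5′ end of the window, and CACGCG on the opposite strand at bases 131 to 136. These 2 motifs occur in 7.15% and 9.27% of the 32851 promoters of the table. The Noct window held neither. No window of these 2 genes held AGGTCA, found in 16.3% of all promoters, the longer forms TAGGTCA (2.61%) and TGGGTCA (3.98%), or a direct repeat of AGGTCA with 2 bases between the copies, the core of the RevDR2 element (0.00913%). TTACGTAA and TTATGTAA, forms of the D-box, and the cAMP response element TGACGTCA were also not found in either window. They occur in 0.119%, 0.938% and 1.79% of all promoters. AGGTCA is part of TAGGTCA and of the direct repeat, so those shares overlap.

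The 3 loci differed widely in peak height, measured as sequenced tags in the fixed peak window of 153 bp (alpha) or 210 bp (beta). Noct held one of the highest sites of both lists, Bhlhe40 held several sites of moderate height, and Bhlhe41 held 4 low alpha peaks and 1 moderate beta peak. The highest alpha peak had 376 tags at Noct (interval 339 to 416), 71 at Bhlhe40 (55.5 to 89.6) and 24 at Bhlhe41 (15.4 to 35.7), and these intervals did not overlap. The highest beta peak had 356 tags at Noct (320 to 395), 105 at Bhlhe40 (85.9 to 127) and 68 at Bhlhe41 (52.8 to 86.2). The order of the loci was thus the same in both libraries, but the beta intervals of Bhlhe40 and Bhlhe41 overlapped slightly. The alpha order of Bhlhe40 and Bhlhe41 also rests on the window limits. An alpha peak 1828 bp before the Bhlhe41 window held 96 tags, above the highest alpha peak at Bhlhe40. The median of the 12 alpha peaks was 42 tags, against 27 over the whole alpha list, and that of the 8 beta peaks was 66, against 39 over the beta list. In the top 5% of the lists by tags were 2 of the 12 alpha peaks, both at Noct, and 1 of the 8 beta peaks, also at Noct. With ties counted in, 5.08% of all alpha peaks and 5.01% of all beta peaks were in this range.

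**Figure D1:**
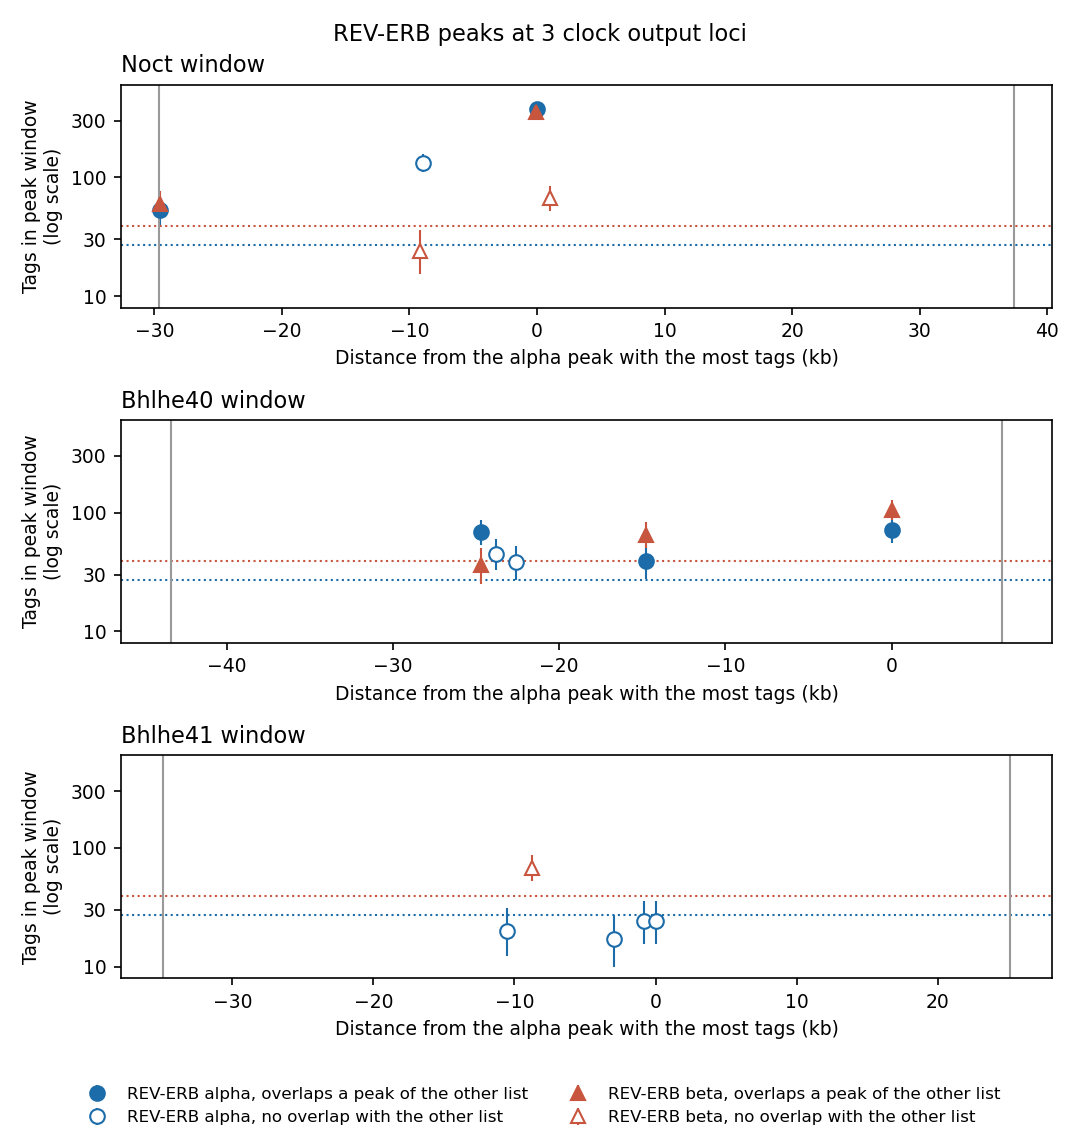
Tags in each peak window (y axis, log scale) against the distance of its centre from the alpha peak with the most tags (x axis, kb), with exact 95% Poisson intervals for counting error; filled symbols overlap a peak of the other list, grey vertical lines are the window limits, peaks outside them are not drawn, and dotted lines are the medians of the alpha list (blue, 27 tags) and beta list (red, 39 tags). The Noct panel has a pair with 376 and 356 tags, the Bhlhe40 panel has 3 filled pairs, and the Bhlhe41 panel has open symbols only.

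Inside the windows, alpha and beta peaks coincided at Bhlhe40 and Noct but not at Bhlhe41. The absence at Bhlhe41 rests on the window limit, since a beta peak 2290 bp before its window did overlap an alpha peak. Of the 12 alpha peaks, 5 (41.7%) overlapped a beta peak by at least 1 bp, against 57.8% over the chromosomes on which both lists have peaks. Of the 8 beta peaks, 5 (62.5%) overlapped an alpha peak, against 60.3% of the beta list. The shared pairs were 3 at Bhlhe40 and 2 at Noct. The 3 beta peaks of Bhlhe40 were all shared, whereas 2 of its 5 alpha peaks were not.

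At Noct the main alpha peak, chr3:51037526-51037678, held 376 tags, and the main beta peak, chr3:51037453-51037663, held 356. The input library had 7 tags in the alpha window and 4 in the beta window. By tags the site ranked 6 for alpha and 49 for beta, and by the geometric mean of both counts it ranked 8 among the 13314 shared pairs of the series. The tags fell on 189 unique positions in alpha and 166 in beta, so that each position carried 1.99 and 2.14 tags, against list medians of 1.17 and 1.60. Those medians are over peaks of all heights, and peaks of similar height were not compared in this measure. The centres of both peaks were 44 bp apart, more than the median of 28 bp over all shared pairs but within their upper quartile of 50 bp. Tag density in the alpha window was 66.1 times that of the rest of the surrounding 10 kb, and in the beta window 33.8 times, against list medians of 11 and 12.3 computed in the same way. Over all peaks of the 3 loci the median density was below that of the lists, at 8.57 times the surroundings for alpha and 9.85 times for beta.

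The 3 shared pairs elsewhere with the tag counts most like those of the main Noct site were chosen by the distance between log2 counts of both libraries, over 2 libraries. They lay at chr19:36709419-36709571 (375 alpha and 384 beta tags), chr11:100454120-100454272 (350 and 287) and chr11:109356267-109356419 (404 and 450). For the highest Bhlhe40 pair the closest were chr3:54311680-54311832, with the same 71 and 105 tags, chr7:134815921-134816073 (71 and 104) and chr5:65101589-65101741 (72 and 105). Positions are those of the alpha peaks, and no genes were assigned to them.

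A second strong alpha peak of the Noct window had no overlapping beta peak. It lay 8905 bp from the main site, at chr3:51028621-51028773, and held 133 tags (interval 111 to 158), which placed it in the top 1.6% of the alpha list. The input had 0 tags there. Set against a floor of 3 input tags, the 133 tags were 44.3-fold higher, without allowance for counting error or library depth. The nearest beta peak, at chr3:51028339-51028549, was centred 253 bp away and was separated from the alpha window by 71 bp. That beta peak held 24 tags against 5 input tags and stood at 77.6% from the top of the beta list. Among alpha peaks without an overlapping beta peak, 17.7% of 9732 had a beta centre within 1 kb. The share with a beta centre as close as 253 bp was not computed.

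The beta level at this alpha site could be limited from the deposited local counts. The 10 kb around the 24-tag beta peak, which contain the whole alpha peak window, held 194 beta tags, or 170 outside the beta peak itself. At the median ratio of the shared pairs, 0.688 alpha tags per beta tag, an alpha peak of 133 tags would go with 193 beta tags. If all 170 tags lay in the alpha window, the ratio would be 1.14 times the median with 133 alpha tags, and 0.953 times with the lower limit of their counting interval. This case is the most that the local counts allow, and no called beta peak overlapped the alpha window. By themselves the local counts show neither a lean to alpha at this site nor a beta level that matched it. Spread evenly, they would give 3.65 tags per 210 bp. The true beta count in the alpha window was not analysed here.

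The other peaks of the Noct window were lower. A beta peak at chr3:51038514-51038724 held 67 tags and 5 input tags, was centred 1061 bp from the main beta peak, and had no overlapping alpha peak. A shared pair at the edge of the window, chr3:51007941-51008093 in alpha and chr3:51007925-51008135 in beta, held 53 alpha and 60 beta tags with 2 and 4 input tags. Its centres lay only 17 and 30 bp inside the window. Just outside, 1313 bp from the window start for alpha and 1268 bp for beta, a stronger shared pair held 110 alpha and 227 beta tags, and at the other end the nearest outside peaks held 28 alpha tags (5013 bp away) and 22 beta tags (6839 bp away). The limit of the Noct window therefore runs through a group of peaks.

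**Figure D2:**
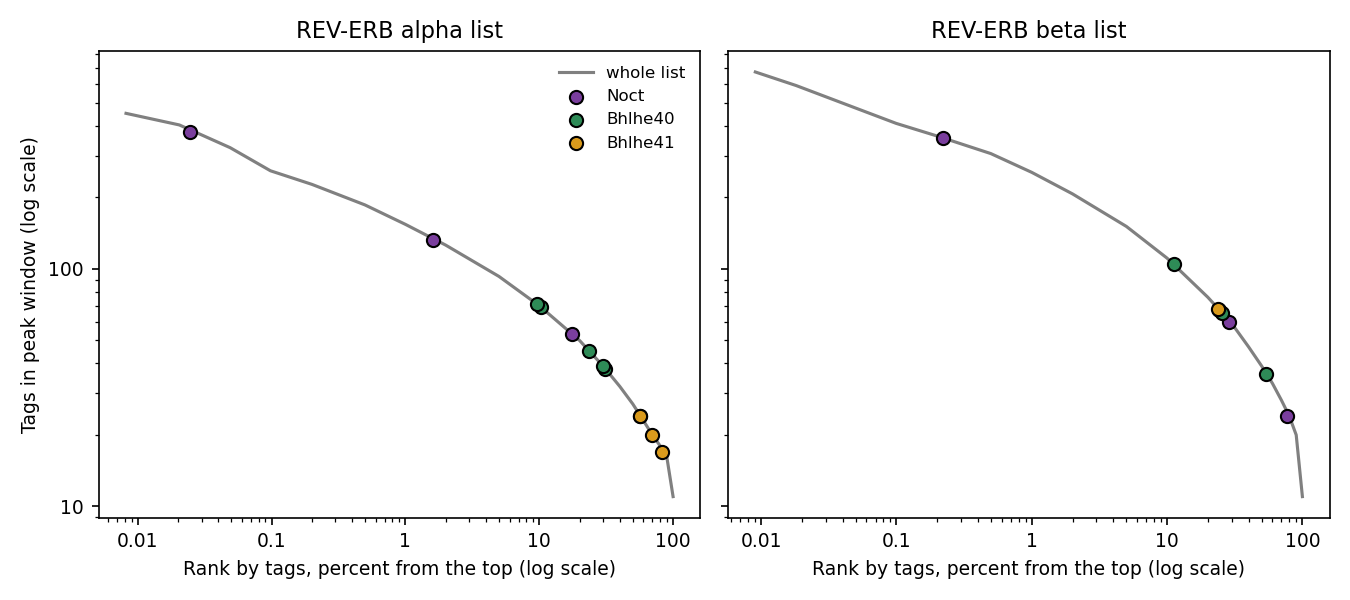
Tags per peak (y axis, log scale) against rank in the same list as percent from the top (x axis, log scale), with the whole list as a grey line and the peaks of the 3 loci as points, alpha on the left and beta on the right. Points lie on the curve by construction; the Noct pair of 376 and 356 tags sits far to the left, and the 4 Bhlhe41 alpha peaks (17 to 24 tags, one point standing for the 2 with 24) sit at the right.

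At Bhlhe40 the alpha peaks fell into a tight group and 2 separate sites. The group had 3 alpha peaks within 2103 bp, at chr6:108608566-108608718 with 69 tags, chr6:108609470-108609622 with 45 and chr6:108610669-108610821 with 38, against 1, 4 and 3 input tags. All 3 were above the alpha median of 27 tags. The beta list had 1 peak there, chr6:108608547-108608757, with 36 tags and 2 input tags, which overlapped the first alpha peak. The alpha list thus had 3 peaks where the beta list had 1, and that beta peak was just below the beta median of 39. The 10 kb around the beta peak held 285 further beta tags. If all lay in the window of the 45-tag or the 38-tag alpha peak, the ratio would be 0.230 or 0.194 times the median of the shared pairs. The local counts thus show no lean to alpha at either peak, and the beta counts in their windows were not analysed here.

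The 10 kb around the members of this group held 531, 539 and 611 alpha tags, which placed them in the top 3.67%, 3.50% and 2.11% of the alpha list by local tags. The beta peak had 321 tags in its 10 kb, at 22.1% from the top of the beta list. Part of the alpha count came from the 3 called peaks. Without them 379 alpha tags remained around the first peak, against a list median of 154, and 285 beta tags around the beta peak, against 133. Each library thus had more tags than its list median in this stretch also outside the peaks called in its own list.

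The other Bhlhe40 sites were both shared. The middle site, chr6:108618462-108618614 in alpha and chr6:108618442-108618652 in beta, held 39 alpha and 65 beta tags, with 2 input tags in each window. The last, chr6:108633263-108633415 and chr6:108633245-108633455, held 71 alpha and 105 beta tags, with 6 input tags in each window, and was the highest pair of the locus in both libraries. It stood at 9.64% from the top for alpha and at 11.2% for beta. The centres of the 3 Bhlhe40 pairs were 9 to 11 bp apart, below the lower quartile of 13 bp over all shared pairs.

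Ratios of alpha to beta tags were set against their median over the 13314 shared pairs, since raw ratios mix library depth and window size with binding. A pair was called when it lay at least 2-fold from this median, which 8.40% of all shared pairs did toward alpha and 9.71% toward beta. Of the 5 pairs at these loci, 1 was called toward alpha and 0 toward beta. These counts carry no p-value, since each antibody has 1 library.

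The called pair was the first of the Bhlhe40 group. Its 69 alpha and 36 beta tags gave a ratio 2.79-fold above the median, or 1.48 on the log2 scale (exact interval of the alpha share, 0.88 to 2.10). A higher ratio was found at 2.23% of all shared pairs. The interval reaches below the 2-fold line at 1, so counting error alone leaves the call uncertain. With tag density over the surrounding 10 kb in place of tags the value was 0.82, which ended the call. The surroundings in this measure included other called peaks: 462 alpha tags, or 379 without them, and 285 beta tags in both cases. The density ratio without those peaks was not computed. The middle and last Bhlhe40 pairs had log2 ratios of -0.20 (-0.81 to 0.40) and -0.02 (-0.48 to 0.42), and both intervals included the median. With tag density the last pair had -0.84, toward beta and short of the 2-fold rule, and the middle pair -0.25.

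The main Noct pair had a log2 ratio of 0.62 (0.41 to 0.83), or 1.54-fold toward alpha, short of the 2-fold rule. Its sign depended on the measure: with tags over input tags the log2 ratio was -0.39, with 7 input tags in the alpha window and 4 in the beta window. Both counts came from the same input library in overlapping windows. The change of sign thus rests on few input tags, whose counting error was not allowed for. With tag density over the surrounding 10 kb it was 1.08, past the 2-fold line. The beta surroundings in this measure included another called peak: 491 tags, or 424 without it, against 366 alpha tags in both cases. The edge pair of the Noct window had a log2 ratio of 0.36 (-0.20 to 0.92).

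**Figure D3:**
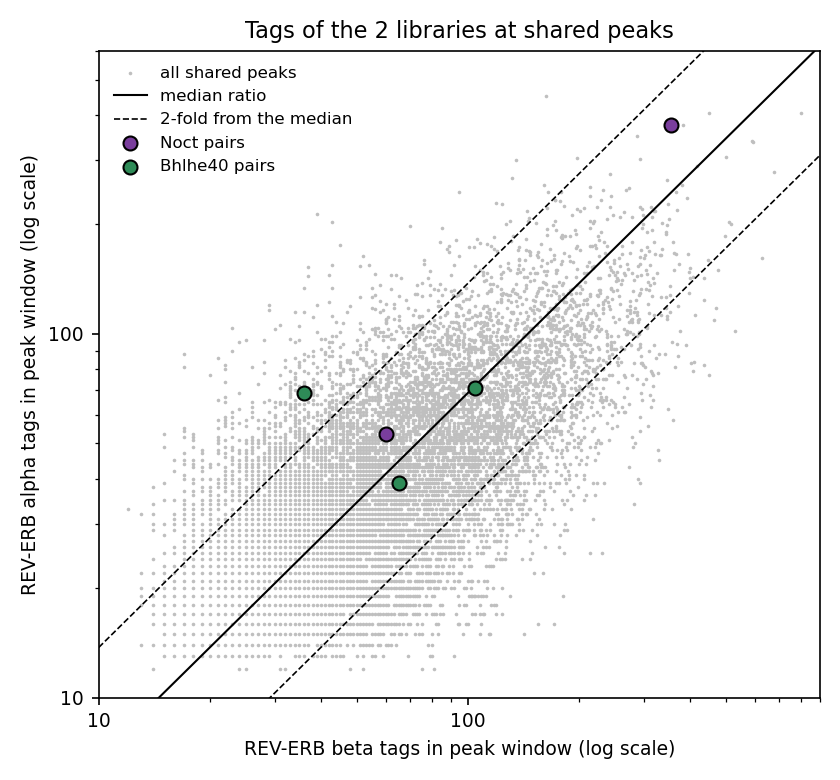
Alpha tags (y axis) against beta tags (x axis) at the 13314 shared pairs of the series (grey) on log scales, with the median ratio of 0.688 as a solid line, 2-fold departures as dashed lines, and the 5 pairs of Bhlhe40 and Noct in colour. One Bhlhe40 pair (69 alpha, 36 beta tags) lies above the upper dashed line, and the other 4 pairs lie between the dashed lines.

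Tags around the peaks gave a second view of the balance that does not use the peak windows. For each pair the tags in the surrounding 10 kb were counted without those of peaks called in the same list. The log2 ratio was again set against its median over all shared pairs (quartiles -0.32 and 0.34). A peak called in only 1 list was taken out of that list alone, so both counts of a pair can cover different ground. This removed neighbouring peaks from the alpha count only at the called Bhlhe40 pair, and from the beta count only at the main Noct pair. At Bhlhe40 these ratios were 0.31 for the called pair (379 alpha and 285 beta tags), -0.01 for the middle pair (246 and 231) and 0.75 for the last pair (159 and 88). At Noct they were -0.31 for the main pair (366 and 424) and -0.30 for the edge pair (181 and 208). The surroundings of the last Bhlhe40 pair leaned further to alpha than its peak, and those of both Noct pairs leaned to beta while their peaks had ratios above the median. The density ratios given above divide peak tags by surrounding tags, so they are not independent of these surroundings. Whether the surroundings bear on the tag counts in the peaks was not tested.

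**Figure D4:**
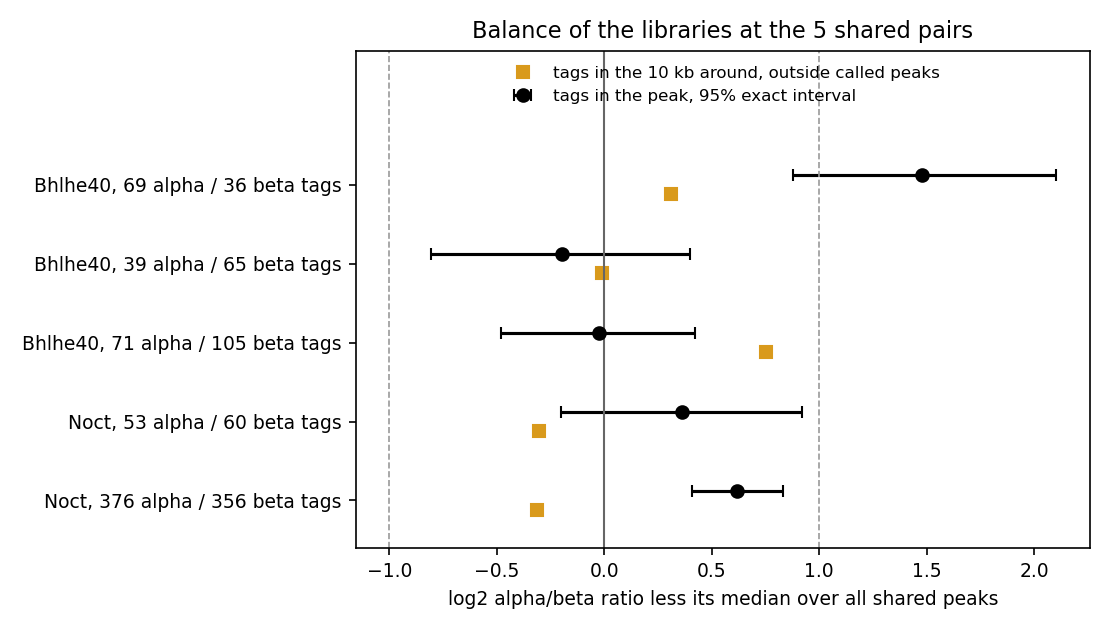
The log2 ratio of alpha to beta tags less its median over all shared pairs (x axis) for the 5 pairs (rows), from tags in the peak with exact 95% intervals (black) and from tags of the surrounding 10 kb outside peaks called in the same list (orange), with dashed lines at 2-fold. The first Bhlhe40 pair, at 1.48, is the only one past the dashed line, and the orange squares of both Noct pairs lie below 0 at -0.30 and -0.31.

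Inside its window, Bhlhe41 had the lowest alpha peaks of the 3 loci, and no shared pair. Its 4 alpha peaks lay at chr6:145804304-145804456 (20 tags), chr6:145811824-145811976 (17), chr6:145813996-145814148 (24) and chr6:145814799-145814951 (24), with 4, 3, 2 and 5 input tags. All 4 were below the alpha median of 27 tags and stood between 56.5% and 82.6% from the top of the list. The only beta peak, chr6:145805989-145806199, held 68 tags against 4 input tags and stood at 23.7% from the top of the beta list. Its centre was 1714 bp from the nearest alpha peak. The closest approach of the lists inside the Bhlhe41 window was thus far beyond the overlap rule. It was close to the lower quartile of 1831 bp found for all beta peaks without an overlapping alpha peak.

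Both lists had a peak shortly before the Bhlhe41 window, and the alpha one was higher than any alpha peak inside. An alpha peak at chr6:145778096-145778248, 1828 bp before the window start, held 96 tags, in the top 4.45% of the alpha list, and had no overlapping beta peak. A beta peak at chr6:145777605-145777815, 2290 bp before the start, held 66 tags, near the 68 of the beta peak inside, and overlapped an alpha peak. At the other end no alpha peak followed for 234192 bp beyond the window, and the next beta peak, with 20 tags, lay 26949 bp beyond it. For Bhlhe40 the nearest outside peaks were beta peaks of 31 tags, 1334 bp before the start, and 47 tags, 20011 bp beyond the end, and alpha peaks of 33 and 17 tags, 68883 and 83666 bp away. The alpha list thus had no peak close to either end of the Bhlhe40 window, whereas both lists had peaks within 3 kb before the start of the Bhlhe41 and Noct windows.

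The neighbouring protein-coding genes in RefSeq (GRCm38.p6, used for names only) are Itpr1 and Arl8b for Bhlhe40, Rassf8 and Sspn for Bhlhe41, and Slc7a11 and Elf2 for Noct. The lncRNA gene 0610040F04Rik overlaps Bhlhe40. No mm9 annotation was used, so whether a peak lies in a promoter, an intron or between genes is not given, and peaks of a window may belong to a neighbour.

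Signal over input and crowding were compared with the whole lists. Tags plus 1 over input tags plus 1 had a median of 10.0 over the 12 alpha peaks, against 9 over their list, and of 13.1 over the 8 beta peaks, against 10.0. The alpha peaks of Bhlhe41 had the lowest values of the alpha peaks, from 4.17 to 8.33. Other peaks of the same list within 25 kb of a locus peak had a median of 4 in alpha, against 2 over the list, and of 2 in beta, the same as over the list. The 5 alpha peaks of Bhlhe40 each had 4 such neighbours, namely one another, and the beta peak of Bhlhe41 had 0.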

How the data were processed

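Fixation for the 3 ChIP-seq libraries (one per receptor and input) took 30 minutes in disuccinimidyl glutarate at 2 mM, then 10 minutes in formaldehyde at 1%, per the labels' protocols. Bowtie, HOMER and mm9 are named in the submitters' processing notes; versions and read filters are not stated there. The authors deposited 1 peak list per antibody, with raw counts per peak: tags, unique tag positions and input tags in the peak window, and tags in the surrounding 10 kb, per the file headers. The deposited peak score (lowest 14 in alpha, 12 in beta) ranked peaks in 1 alternative. The deposited FDR, a p-value-like column, is 0 in every row and was not used. Peak positions are the authors' own, and 1 list per library leaves no replicate.

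Peaks were taken by centre in the 3 windows. Members, motifs and tests were chosen with earlier results of these data known. Peaks were shared with at least 1 bp of overlap, and ratios were centred on the median of all shared pairs. The beta list as used here has 0 peaks on chromosome 8, which was left out of the share of alpha peaks overlapped. Named in full were the highest shared pair of each locus, peaks in the top 5% of a list and pairs past 2-fold; the remaining peaks, few in number, were also given by position. Intervals are exact Poisson for tags and Clopper-Pearson for ratios. Matching and ratio rule were tested on simulated data. The planned search of peak sequences, protein comparison and other clock genes were not made, since mm9 sequence and annotation and protein sequences were not used here. Python 3.11.15, numpy 2.4.6, pandas 2.3.3, scipy 1.17.1 and matplotlib 3.10.9 were used.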

Additional observations from a re-analysis of the deposited data

How the results depend on the processing

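Of 52 alternative values of the counts and medians over the loci, 43 moved by at most 1.5-fold. With windows widened by 10 kb at each end, Bhlhe41 held 8 alpha and 3 beta peaks, and Noct 7 alpha and 7 beta peaks. At Bhlhe41, 1 alpha peak had tags at least 8 times the input, and 0 were in the top 50% of the list. With 5 added to both counts, median tags over input were 5.92 in alpha and 7.67 in beta, against 4.40 and 5.29 over the lists. Within 50 kb the beta peaks had a median of 4.5 others, against 3 over the list. The alpha call at Bhlhe40 fell to 0.82 with density over the surrounding 10 kb, below the 2-fold line, while the main Noct pair rose past it to 1.08 and the last Bhlhe40 pair went from -0.02 to -0.84. With unique positions these were 1.19, 0.27 and -0.07. The density ratios divide peak tags by surrounding tags, other called peaks included, so they move with the balance of the surroundings. Why surroundings or unique positions differed between the libraries was not tested. The counts of 3, 0 and 2 shared pairs at Bhlhe40, Bhlhe41 and Noct moved by at most 1.5-fold under every overlap rule run, which includes 3 at Noct with centres within 500 bp. All these rules kept the windows fixed, and shared pairs were not counted again with widened windows. No paired analysis was possible because there is a single library for each receptor, so none could be left out either.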
